A study of Homo sapiens with 8 samples.

Results

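The 116563 open chromatin regions of vehicle-treated U-937 cells are described here. U-937 is an established human myeloid leukaemia line of monocytic character. ATAC-seq reads such DNA: a transposase inserts sequencing adapters where the DNA is not covered by nucleosomes. The regions come from the single peak list of the DMSO group, where 222491 peaks that overlapped each other were merged, and they are 116563 of the 427245 regions obtained in the same way from the 4 lists of the series. The series holds 8 samples, 2 in each of 4 groups of U-937 cells treated for 24 h: vehicle (DMSO), ATRA (all-trans retinoic acid), Corin, and the combination, each compound dosed at 0.1 µM. No group carries a genetic change that the labels name, and all groups are the same line without a normal monocyte beside it. The 2 DMSO samples share 1 list, so no value below has a spread between replicates and none was tested, and how deeply each sample was read is unknown. A 95% Wilson interval on a share covers counting error over genes or regions only. The labelled cell type was checked against markers. SPI1 and CEBPA, both markers of the myeloid lineage, had an open promoter. CD14 and MPO had no region within 1 kb of a coding start. The further myeloid markers CSF1R, CD33, ITGAM, LYZ, CD68, ELANE, AZU1 and PRTN3 were open. However, 68.9% of all coding genes had an open promoter, so open promoters of markers alone do not identify the lineage. Among lists of other lineages, lymphoid regulators were open in 12 of 16 and erythroid genes in 6 of 16.

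In blood formation, a small set of transcription factors sets the lineage of a cell by binding promoters and distal enhancers and keeping them free of nucleosomes. PU.1, encoded by SPI1, acts with C/EBP factors and RUNX1 in monocytes and granulocytes, whereas GATA1, TAL1 and KLF1 act in red cells and PAX5 and EBF1 in B cells. Promoters of genes that every cell needs are mostly rich in CpG and open in all tissues, and distal regions carry most of the difference between cell types.

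Sequences of 6 regions are printed first because the results on regulators, strength and motifs turn on them. Each is 200 bp of the plus strand of hg38 centred on the summit, from the reference genome and not from reads of the cells. Capitals mark matches, on either strand, to a consensus. The letters searched were GAGGAAGT for PU.1, the factor of SPI1, and TTGCNNAA for the C/EBP family of granulocytes and monocytes. They were TGANTCA for AP-1, the dimer of Fos and Jun proteins, and TGTGGTT for the RUNX factors. For GATA factors AGATAAG was searched, for the KLF and SP proteins that bind CpG-rich promoters GGGCGG, and for other ETS factors CCGGAAG. A loose consensus was used for CTCF, which leaves 5 of its 12 positions free. A match is a description of letters and not a binding site. The first 3 are the distal regions of highest fold within 100 kb of CEBPA (chr19:33287031-33287230) and MPO (chr17:58344365-58344564), and the distal region of highest fold in the list (chr4:118424146-118424345). The other 3 were chosen after their values were seen. They lie 16.3 kb upstream of SPI1 (chr11:47394730-47394929), 42.8 kb downstream of CEBPA (chr19:33259635-33259834), and 32.8 kb upstream of C1orf100 (chr1:244319718-244319917), where the window holds PU.1, RUNX, C/EBP and AP-1 matches together.
CEBPA strongest distal: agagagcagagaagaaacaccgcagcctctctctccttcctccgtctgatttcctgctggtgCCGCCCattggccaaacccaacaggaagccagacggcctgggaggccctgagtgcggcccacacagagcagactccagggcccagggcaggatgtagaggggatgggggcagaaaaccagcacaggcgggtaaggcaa
MPO strongest distal: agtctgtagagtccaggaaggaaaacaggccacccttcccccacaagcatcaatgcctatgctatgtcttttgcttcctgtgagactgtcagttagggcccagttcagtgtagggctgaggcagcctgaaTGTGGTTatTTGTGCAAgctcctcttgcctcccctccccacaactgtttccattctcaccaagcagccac
PRSS12 intergenic: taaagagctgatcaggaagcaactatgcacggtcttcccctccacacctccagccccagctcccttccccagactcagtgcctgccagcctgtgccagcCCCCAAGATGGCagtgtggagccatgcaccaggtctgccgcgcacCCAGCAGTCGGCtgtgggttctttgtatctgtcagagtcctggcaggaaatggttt
SPI1 upstream: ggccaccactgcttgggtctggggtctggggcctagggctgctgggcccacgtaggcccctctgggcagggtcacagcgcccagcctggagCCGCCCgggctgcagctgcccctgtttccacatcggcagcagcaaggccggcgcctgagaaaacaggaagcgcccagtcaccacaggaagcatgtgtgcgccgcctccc
CEBPA downstream: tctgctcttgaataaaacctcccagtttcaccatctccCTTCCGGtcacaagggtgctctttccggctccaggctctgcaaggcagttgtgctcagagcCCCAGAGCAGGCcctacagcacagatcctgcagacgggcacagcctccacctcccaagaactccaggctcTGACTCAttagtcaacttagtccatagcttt
C1orf100 upstream: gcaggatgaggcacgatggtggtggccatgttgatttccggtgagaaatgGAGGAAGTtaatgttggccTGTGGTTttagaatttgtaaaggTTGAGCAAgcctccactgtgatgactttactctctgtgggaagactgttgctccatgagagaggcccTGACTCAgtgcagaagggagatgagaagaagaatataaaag
None of the windows beside SPI1, CEBPA and MPO holds the PU.1 letters. Only that exact form was searched, so its absence does not mean that a PU.1 site is absent. The MPO window holds a RUNX and a C/EBP match 2 bp apart, and the intergenic window near PRSS12 holds 2 CTCF matches, the first of which also holds the YY1 letters AAGATGGC.

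The regions covered 74.5 Mb, or 2.41% of the length of the 24 chromosomes. Their median width was 544 bp (quartiles 338 and 844 bp, largest 3450 bp). A single peak made up 47.6% of the regions, 2 to 4 peaks 48.7%, and 5 or more 3.70%. The strength of a region was read on 2 scales. The fold is the authors' ratio of reads at the summit over the local background, and its median was 5.05 (quartiles 2.89 and 9.68, highest 40.1). The pileup is the number of reads stacked at the summit, solved from the fold and the p-value of the same peak, and its median was 109 (quartiles 53 and 284). Both scales are given below, since a summit with many reads gets a low fold where the surrounding background is high.

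Most open chromatin lay away from gene starts. Only 24798 regions, or 21.3% (21.0 to 21.5%), had their summit within 1 kb of an annotated transcript start and are called promoter regions. Introns held 46.3%, sequence between genes 27.6%, and exons 4.74%. The remaining 91765 regions are called distal, and their median distance to the nearest coding start was 19202 bp. Promoter regions were wider than distal regions (median 850 against 498 bp), had the higher fold (8.32 against 4.61) and pileup (341 against 92), and the higher GC content at the summit (61.5% against 49.0%). The share of promoters did not follow strength in a single direction. It was 18.8% in the weakest decile of regions by fold, 13.3% in decile 4 and 46.3% in the strongest decile, as the bars by decile of strength show.

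**Figure D1:**
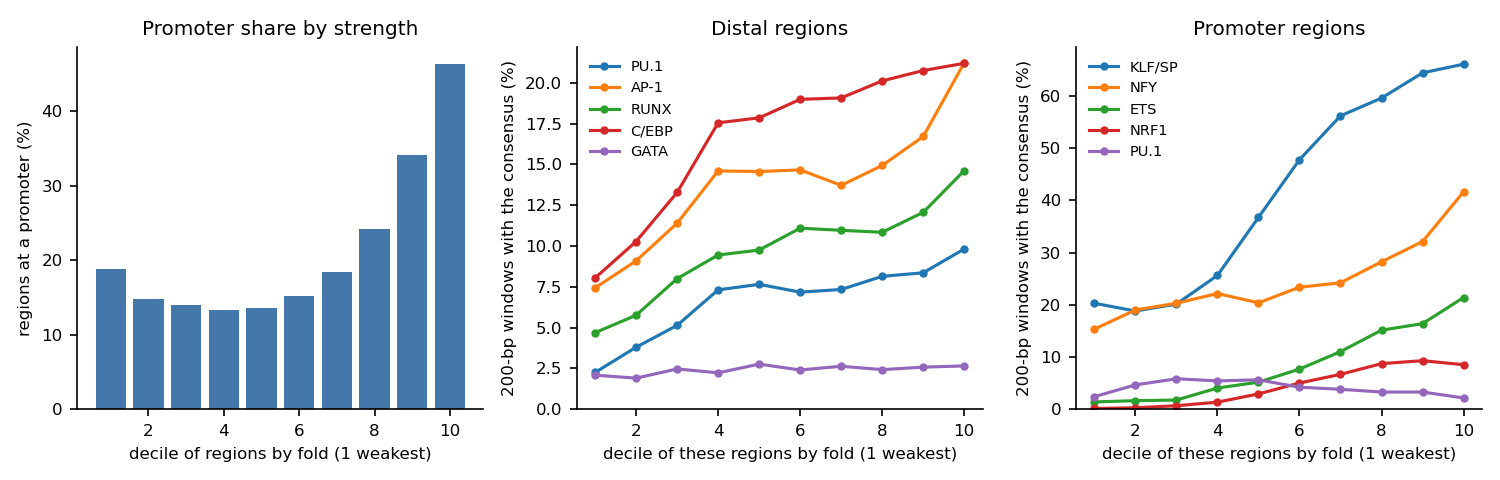
Left, share of DMSO regions at a promoter (%) in deciles of all regions by fold. Middle and right, share of 200-bp summit windows (%) with a consensus match in deciles of distal and of promoter regions by fold. The promoter share is 18.8% in the weakest and 46.3% in the strongest decile, PU.1 in distal regions 2.24% and 9.82%, and KLF/SP in promoter regions 20.3% and 66.1%.

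The 10 regions of highest fold were 9 promoter regions and 1 intergenic region. The strongest was the promoter of ZNF519, a zinc finger gene on chromosome 18 (chr18:14132386-14132770), at 40.1-fold with a pileup of 764. It was followed by POMZP3 (38.4-fold), SRGAP2 (37.4-fold, a start region shared with FAM72A), and MFSD14B (33.96-fold). SPDYE10, CCDC146, GPR89A and the neighbourhoods of TUBGCP3 and SPDYE8 lay between 31.7-fold and 32.9-fold. Several of these names belong to gene families with near-identical copies, so reads may have been placed on more than 1 copy, and their level is uncertain. None of the 10 is in the lineage lists used below. The intergenic region, at 32.2-fold and a pileup of 445, lay 71.2 kb from the start of PRSS12 on chromosome 4 (chr4:118424096-118424553). The next distal regions by fold were intronic regions whose nearest coding starts were those of LRRC37A (31.3-fold) and ZNF277 (30.02-fold), and an exonic region nearest to CAMK2D (29.6-fold).

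Ranking by −log10 p gave other regions. The 100 highest by fold and the 100 highest by −log10 p shared 0 regions. The first had a median background of 24.4 reads and a median pileup of 731, and the second a median background of 164 and a median pileup of 2902. Promoter regions were 66 of the first 100 and 92 of the second. The highest −log10 p, 9123, was at the promoter of PDK1, a kinase that inhibits pyruvate dehydrogenase, where the pileup was 13550 and the fold 11.7. Of the 10 highest, 6 lay on chromosome 2 within 558 kb (chr2:171999287-172556933). They were at PDK1, at SLC25A12, at ITGA6, which encodes an integrin alpha chain, and at 3 distal regions. The nearest coding start to each of these 3 was a start of ITGA6, 23116, 46696 and 146379 bp away. The first distance is to another ITGA6 start than the one at the ITGA6 promoter region. The ITGA6 promoter had a pileup of 6628 and a fold of 14.8. The 126 regions of this stretch had a median background of 100.1, against 17.9 over chromosome 2, so here pileup and background were both high. The other 4 were the promoters of STARD5, MCM3, BCL10 and SETDB2, with pileups of 3321 to 3882. MCM3 is a subunit of the replicative helicase, and BCL10 an adaptor in NF-kB signalling.

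The widest region, 3450 bp built of 11 peaks, lay at SLC16A3 (chr17:82228847-82232296), a lactate exporter, with a fold of 3.80 and a pileup of 923. The others of the 10 widest were at CLCF1 (3427 bp), DNAJB1 (3325 bp), PTMA (3304 bp), HSP90AB1 (3190 bp), PRKD2 (3136 bp), MYO18A (3090 bp) and CST7 (3068 bp), in an intron nearest to FRMD3 (3164 bp), and 7554 bp from BMI1 (3091 bp). HSP90AB1 and DNAJB1 encode heat shock chaperones, and CST7 a cystatin of leukocytes. Among the 100 widest, 84 were promoter regions and the median fold was 7.29, against 27.4 in the 100 highest by fold. In the plot of pileup against background the 3 rankings hold different places.

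**Figure D2:**
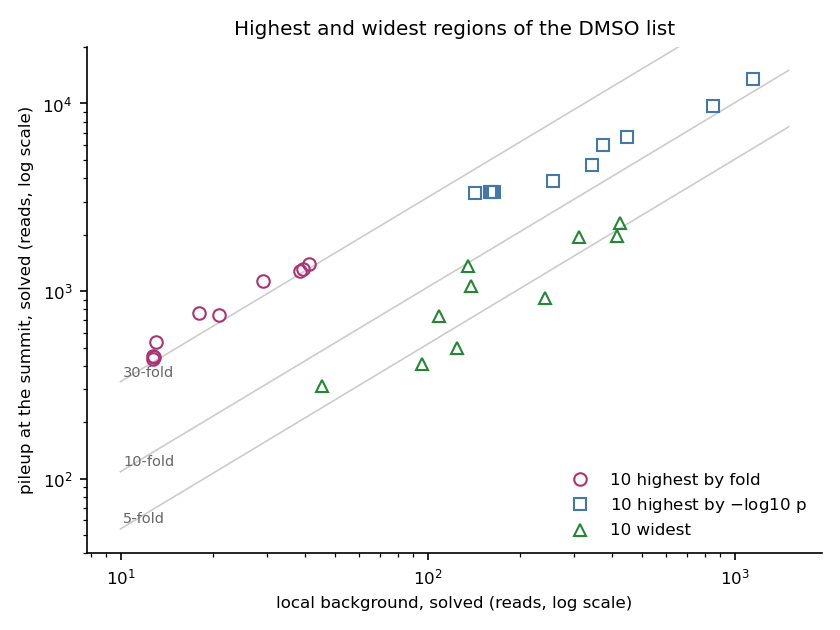
Pileup at the summit against local background (reads, both log scales) for the 10 DMSO regions of highest fold, the 10 of highest −log10 p and the 10 widest, with grey lines of equal fold. The regions of highest fold lie at the left at pileups of 437 to 1387, those of highest −log10 p at the upper right at 3321 to 13550, and the widest at 312 to 2304.

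Regions were not spread evenly. Chromosome 19 had the most per Mb (78.3) and X the fewest (21.1, chromosome Y not counted). Per coding gene, chromosome 13 stood highest with 15.3 regions, while the others lay between 3.11 and 9.52. It also had the fewest coding genes per Mb (2.82), and its 43.4 regions per Mb lay inside the range of the others. Its regions were largely weak and distal, with a promoter share of 10.8% and a median distal pileup of 54, against 80 to 112 on the other chromosomes. The open promoters of coding genes on chromosome 13 were not weak, with a median pileup of 1002 over 236 genes, and over the chromosomes this median ran from 517 on chromosome 22 to 1124.5 on chromosome 8. By 100-kb window, the densest held 30 regions at PDK1. Next came 29 regions around CD69, an activation antigen of leukocytes, at 9.7 Mb of chromosome 12, and 27 at TGFBR2, a receptor of transforming growth factor beta. The window of SIRPA, an inhibitory receptor of myeloid cells, held 25.

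At the other end, 4638 stretches of at least 100 kb had no region, together 1377 Mb with the starts of 2619 coding genes. The 4 richest in genes held gene families in many copies, and whether reads can be placed on such copies was not tested. A stretch of 1483 kb on chromosome 11 (chr11:55357861-56841324) held 49 coding genes, of which 47 were olfactory receptors. A second stretch of that chromosome (chr11:4704578-5280596) held 17 olfactory receptors and the beta-globin genes HBB, HBD, HBG1, HBG2 and HBE1. The others held PRAMEF genes on chromosome 1 (22 of 27) and defensins with FAM90A copies on chromosome 8. A stretch on chromosome 21 held 22 keratin-associated protein genes and no other coding gene, and 1 on chromosome 12 held 13 taste receptors among 17.

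Families picked by symbol after these stretches were seen showed both extremes, beside a background of 68.9% of all 19618 coding genes with an open promoter (13522 genes). A promoter counts as open when a region overlaps the 1 kb on either side of any coding transcript start, and where several such regions exist its values are those of the highest fold. Olfactory receptors were open in 19 of 391 genes (4.86%, interval 3.13 to 7.46%), keratin-associated proteins in 10 of 94, taste receptors in 2 of 24 and beta defensins in 3 of 40. Mitochondrial ribosomal proteins were open in 77 of 78, proteasome subunits in 49 of 50, subunits of NADH dehydrogenase in 39 of 39, and cytoplasmic ribosomal proteins in 81 of 83. Between them stood ZNF genes (363 of 512), solute carriers (243 of 373) and interleukins (23 of 45). Receptors of myeloid cells were mixed, with 9 of 10 LILR genes, 8 of 11 Siglecs and 7 of 10 toll-like receptors open but 15 of 31 C-type lectins, against 1 of 6 KIR genes, which are receptors of natural killer cells.

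Lineage genes were then read from 14 lists, each beside that background of 68.9%. Of the 16 myeloid regulators, 16 were open (interval 80.6 to 100%). Their folds were low, from 4.51 at ZEB2 to 12.02 at EGR2 with a median of 7.11, against a median of 13.1 over all open coding promoters, while their median pileup was 1128 against 809. Housekeeping genes were open in 12 of 12 at a median fold of 12.4 and a median pileup of 1340.5. Each of the 16 thus lay below the median open promoter in fold, while their own median lay above it in reads. The pileup of MYB could not be solved and is left out.

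SPI1 had a promoter region of 2477 bp (chr11:47376600-47379076) at 8.22-fold, with a pileup of 766 over a background of 92.3. CEBPA, the regulator of granulocyte and monocyte precursors, had a region of 1635 bp (chr19:33301594-33303228) at 8.23-fold, with a pileup of 1564 over a background of 189. Among the other myeloid regulators, high pileups were found at ID2 (2338), EGR1 (2218), NR4A1 (1291) and RUNX1 (1290 at another start and 984 at the canonical one), among others. EGR2, KLF4, CEBPE, CEBPA and SPI1 were among the 6 of highest fold, from 12.02 to 8.22. IRF8, a regulator of monocytes and dendritic cells, was open only at starts inside the gene (6.17-fold, pileup 185), and its canonical start had no region within 1 kb.

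Of the 25 monocyte and macrophage genes, 20 were open (interval 60.9 to 91.1%). ITGAM, the alpha chain of the CD11b integrin, had the highest fold (20.8, pileup 740), followed by CD33, a sialic acid receptor (17.6, pileup 428), CX3CR1, the fractalkine receptor (15.3, pileup 805), TLR4 (14.1), CLEC7A (13.3) and LYZ, lysozyme (12.81, pileup 357). TYROBP, a signalling adaptor, stood at 12.5-fold (pileup 1158) in a region just upstream and at 2.07-fold (pileup 295) at its start. CLEC7A stood at 4.36-fold (pileup 73) in the region nearest to its canonical start. CSF1R, the receptor for macrophage colony-stimulating factor, was open at its canonical start at 2.69-fold only (pileup 129), while a region in its introns, 4487 bp downstream, reached 12.4-fold (pileup 686). The 5 genes without an open promoter were CD14, MRC1, FCGR1A, VCAN and MARCO, which encode the lipopolysaccharide co-receptor, the mannose receptor, a high-affinity antibody receptor, versican and a scavenger receptor.

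These closed genes differed in their surroundings. CD14 had 3 regions close to its start, 2021 bp upstream (3.66-fold, pileup 358), 1902 bp downstream (13.1-fold, pileup 616; chr5:140630824-140631639) and 4274 bp downstream (2.73-fold, pileup 106). MARCO had a region 1574 bp upstream at 12.3-fold (pileup 760), and VCAN a region 2872 bp downstream at 12.1-fold (pileup 601). The nearest region to FCGR1A lay 10397 bp away (7.25-fold, pileup 99), and the nearest to MRC1 42485 bp away (5.43-fold, pileup 74).

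The list of granule protein genes, which also holds the receptor CXCR2 and the inhibitor SERPINB1, was open in 14 of 16 (87.5%, interval 64.0 to 96.5%). CXCR2, a chemokine receptor on neutrophils, and SERPINB1, an inhibitor of granule proteases, had the highest folds, 14.97 and 14.98, followed by CAMP (14.4), RNASE3 (14.3), CTSG (11.3) and RNASE2 (10.2). The azurophil granule proteases on chromosome 19 were open together. AZU1 stood at 6.87-fold (pileup 877), PRTN3 at 8.01-fold (pileup 350), and ELANE at 3.72-fold (pileup 355) at its start and 7.33-fold (pileup 641) 1647 bp upstream. MPO and LCN2 had no open promoter. MPO, which encodes myeloperoxidase of the same granules, had its nearest region 4523 bp downstream at 3.48-fold and a pileup of 47. Around it lay 10 distal regions within 100 kb, the strongest 63.5 kb upstream at 13.8-fold (pileup 990; chr17:58343892-58345145), nearest to SUPT4H1. Between this region and MPO the start of MIR142HG, the host of a microRNA of blood cells, had a pileup of 1186 at 3.03-fold. LCN2, lipocalin of secondary granules, had its nearest region 1342 bp downstream (pileup 97).

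B cell genes were open in 10 of 14, a share of 71.4% (interval 45.4 to 88.3%) that lies near the background of 68.9%. BANK1, a scaffold of the B cell receptor, had the highest fold (27.0, pileup 546), and CD22 and BLNK reached 10.7 and 10.0. RAG2 (20.6) and RAG1 (18.2), the recombinase genes, counted as open only through starts other than their canonical ones. At the canonical start 8 of 14 B cell genes were open, beside 12724 of all 19618 coding genes. MS4A1, VPREB1, CR2 and TNFRSF17 were closed. T and NK cell genes were open in 12 of 21 (57.1%, interval 36.5 to 75.5%), and their median pileup was 122.5 against 809 over all open promoters. CD8A (17.2) was open through another start only. IL7R (14.9, pileup 217), CD247 (11.9, pileup 740, through another start, with 2.52 and a pileup of 42 near the canonical one), CD6 (10.9) and CD2 (7.77) followed. Closed genes were 9, among them CD3D, CD3E, CD3G, CD7, CD8B and ZAP70. The CD3 genes, which encode chains of the T cell receptor complex, had their nearest regions 12078 bp (CD3E, 22.5-fold, pileup 867), 15234 bp (CD3G) and 16873 bp (CD3D) away, the last 2 being the same region (17.7-fold, pileup 262).

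Red cell and platelet genes were mostly closed. Erythroid genes were open in 6 of 16 (37.5%, interval 18.5 to 61.4%). TFRC, the transferrin receptor that all dividing cells use, stood apart at 13.3-fold and a pileup of 1117. Among the other 5 were ANK1 (8.21, through another start), HBA1 (3.41), CA1 (3.12, through another start) and SLC4A1 (2.17), and the 5 had pileups of 29 to 266. HBB, HBG2, HBZ, ALAS2 and EPOR were among the 10 closed. The only region within 100 kb of HBB lay 53653 bp upstream, on the side of the locus control region, at 9.49-fold (pileup 130; chr11:5280597-5280924). Megakaryocyte genes were open in 3 of 11 (27.3%, interval 9.75 to 56.6%), among them ITGA2B (5.43, pileup 74) and TREML1 (1.94, pileup 48). ITGB3, GP1BA, GP6, GP9, PF4 and PPBP were among the 8 closed.

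Stem and progenitor genes were open in 10 of 12 (83.3%, interval 55.2 to 95.3%), led by CD34 (17.0, through another start), FLT3 (13.7, pileup 410), MSI2 (13.7) and KIT (10.1, pileup 294), with PROM1 and THY1 closed. The HOXA9 promoter had a fold of 2.07 and a pileup of 395. Within 100 kb of its start lay 32 regions, and whether their number bears on the fold was not tested. Genes of other tissues were open in 6 of 18 (33.3%, interval 16.3 to 56.3%), led by SYP (16.8), PECAM1 (14.2, and 11.76 near the canonical start), COL1A1 (11.8) and GFAP (6.22, and 2.10 near the canonical start), and ALB, APOA1, INS, KRT5, KRT18 and CDH1 were among the 12 closed. PECAM1 is an adhesion molecule that monocytes also carry.

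**Figure D3:**
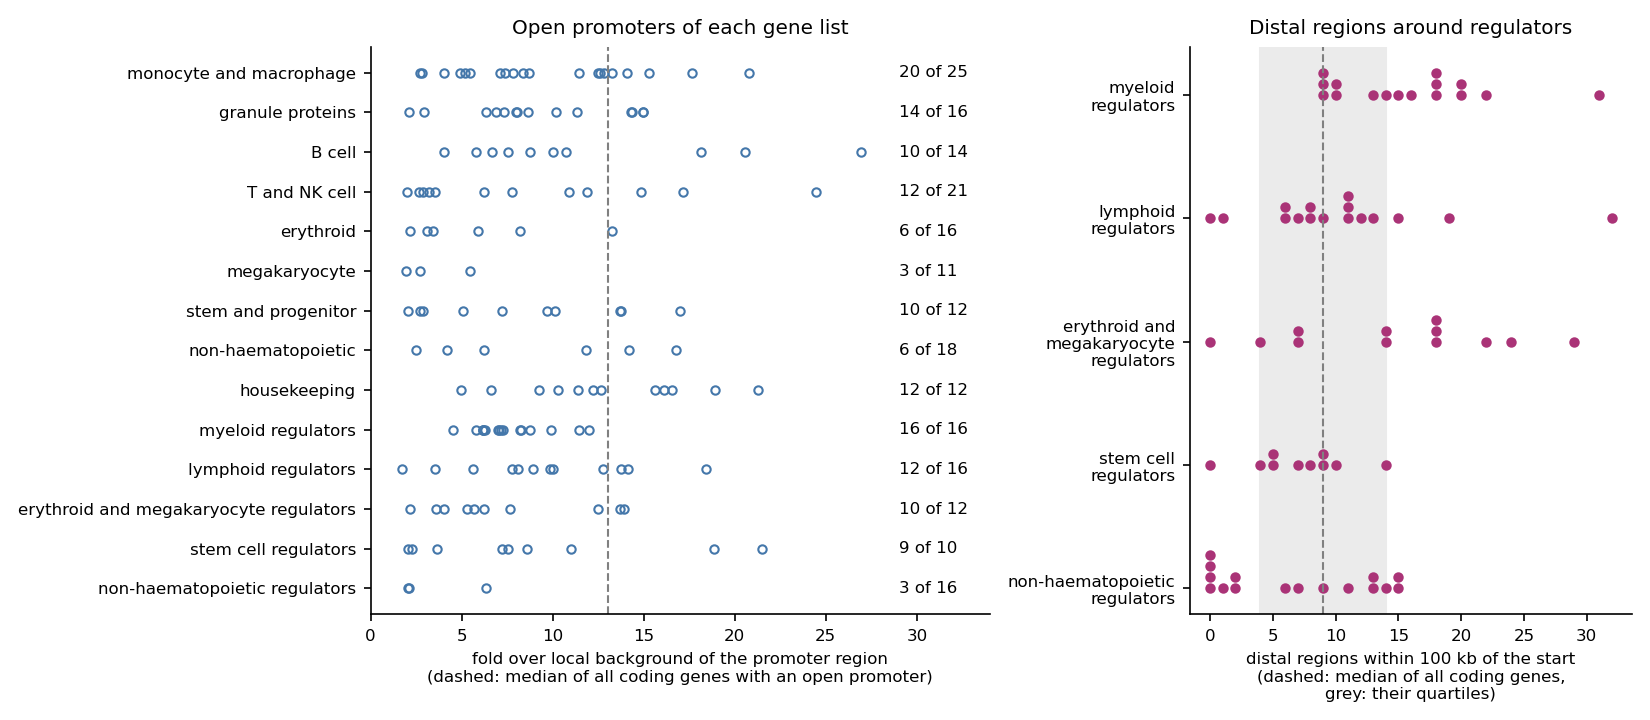
Left, fold over local background of each open promoter in 14 gene lists, 1 circle per gene, with the number open of all genes at the right and the median of all open coding promoters (13.1) dashed. Right, number of distal regions within 100 kb of each regulator, 1 point per gene, stacked where equal, with the median of all coding genes (9) dashed and their quartiles (4 and 14) in grey. All 16 myeloid regulators are open and lie at 9 or more distal regions.

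Regulators of the other lineages split by gene. Lymphoid regulators were open in 12 of 16 (interval 50.5 to 89.8%). GATA3 (18.4, pileup 509), TCF7 (14.2), TCF3 (13.7, pileup 1383), BCL11B (12.7, pileup 206), IKZF1 (10.0, pileup 1142) and EOMES (9.87) led. IKZF3, POU2AF1, SPIB and LEF1 were closed. PAX5, the B cell regulator, had no region at its canonical start and was open at a start 7691 bp inside the gene at 3.52-fold (pileup 186). A distal region in its intron, 6456 bp downstream of the canonical start (chr9:37027096-37028034), was stronger, at 14.8-fold with a pileup of 793. EBF1, the other B cell factor named above, was open at its canonical start at 8.90-fold (pileup 481). Erythroid and megakaryocyte regulators were open in 10 of 12 (83.3%, interval 55.2 to 95.3%), led by GFI1B (13.9 at another start, 12.9 and a pileup of 268 near the canonical one), NFIA (13.7 at another start, 4.53 and a pileup of 163 at the canonical one), ZFPM1 (12.5, pileup 1254), LMO2 (7.65, pileup 726), NFE2 (6.20, pileup 730) and GATA2 (5.70, through another start). LYL1 had the most reads (pileup 1725 at 5.30-fold). GATA1 was near the lower end of all open promoters, at 2.16-fold with a pileup of 32, and TAL1 stood at 3.61-fold with a pileup of 81. KLF1 and SOX6 were closed, although a region 2052 bp downstream of the KLF1 start had a pileup of 1357. Stem cell regulators were open in 9 of 10, among them HLF (18.9), ERG (10.99, through another start), HHEX (8.60, pileup 1333), HMGA2 (7.54) and MEIS1 (7.22, pileup 1122), with HOXB4 closed. Regulators of other tissues were open in 3 of 16 (18.8%, interval 6.59 to 43.0%), GATA4 (6.36, through another start), FOXA2 (2.13) and NEUROD1 (2.05), with pileups of 40 to 106. With peaks of −log10 q of at least 5 only, 1 of the 16 was open.

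Distal regions were counted within 100 kb of the canonical start. Over all 19618 coding genes the median was 9 (quartiles 4 and 14, highest 55), 93.4% had at least 1, and 48.1% had more than the median. Of the myeloid regulators, 13 of 16 had more than the median, and their own median was 15.5. MYB, a factor of dividing progenitors, had 31, above the 27 of the 99th percentile of coding genes, followed by CEBPB (22), CEBPA and IRF8 (20 each), and GFI1, ZEB2 and NR4A1 (18 each). KLF4, EGR1 and ID2 had 9 each. Genes of the granule protein list, some of which share loci, stood above the median in 15 of 16, with a median of 18. Of the erythroid and megakaryocyte regulators, 8 of 12 stood above it with a median of 16, led by FLI1 (29), LMO2 (24) and LYL1 (22). GATA2 had 18 and KLF1 14, while TAL1 had 7, GATA1 4 and SOX6 0. Lymphoid regulators stood above the median of all coding genes in 8 of 16, and their own median was 10. IKZF1, a regulator that also acts in myeloid cells, had 32, BCL11A 19 and EBF1 11, while PAX5 had 6, GATA3 1 and LEF1 0. Stem cell regulators stood above it in 2 of 10, HOXA9 (14) and MEIS1 (10), and in 4 of 10 when counted within 50 kb or with distal set at over 2.5 kb. Regulators of other tissues stood above it in 6 of 16, among them OLIG2 (15), and PAX6, SOX2, FOXA1 and TBX5 had 0. An open promoter and a populated neighbourhood therefore did not go together in every gene. GATA3 had an open promoter of 18.4-fold, with the summit 1143 bp upstream of its canonical start, and 1 distal region.

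The strongest distal regions of the leading genes were as follows. For MYB it lay 21586 bp upstream (chr6:135159277-135159879) at 14.7-fold (pileup 427). For CEBPB it lay 43733 bp upstream at 14.0-fold (pileup 693), in an intron. For CEBPA it lay 15403 bp downstream (chr19:33286679-33287659) at 12.6-fold (pileup 1177). For IKZF1 it was inside the gene at 52076 bp (chr7:50356232-50357315), with 11.9-fold and a pileup of 1161. BCL11A had one 28308 bp upstream at 18.4-fold (pileup 564), and TBX21 one 99016 bp upstream at 12.2-fold (pileup 190). For FLI1 it lay 63483 bp upstream at 13.3-fold (pileup 425), nearest to ETS1, another ETS factor gene. LMO2 had one 83641 bp downstream at 15.6-fold (pileup 231), and LYL1 one 41307 bp downstream in an intron nearest to NFIX at 12.7-fold (pileup 423). HOXA9 had one 72373 bp upstream at 7.08-fold (pileup 178), MEIS1 one 46220 bp downstream in an intron at 6.95-fold (pileup 298), and ERG one 8307 bp upstream in an intron at 19.6-fold (pileup 689). A region near a gene need not act on it.

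The 2 marker regulators had unlike surroundings. SPI1 had 13 distal regions within 100 kb. The strongest by reads lay 18705 bp downstream, in an intron, at 12.5-fold and a pileup of 962 (chr11:47359215-47360418). A region 16283 bp upstream (6.93-fold, pileup 613; chr11:47394063-47395761) counted as a promoter region because the start of a noncoding transcript, SLC39A13-AS1, lies 777 bp away. An enhancer upstream of SPI1 at about this place is known as a regulator of the gene in myeloid cells. CEBPA had 20 distal regions, of which 15 lay downstream. All 15 downstream had pileups of 184 to 1223 and the 5 distal regions upstream 63 to 253, so the ranges overlapped. The highest fold was 12.6 downstream and 10.3 upstream. The 7 regions between 15403 and 53059 bp downstream with a fold over 6 had pileups of 740 to 1223. The pair at 41507 bp (6.76-fold, pileup 948) and 42799 bp (8.52-fold, pileup 1184) sits where a myeloid enhancer of CEBPA is known. The maps of 6 loci, drawn by fold, show the greater number of regions downstream of CEBPA. They also show the sparse surroundings of GATA1 and the single region near HBB.

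**Figure D4:**
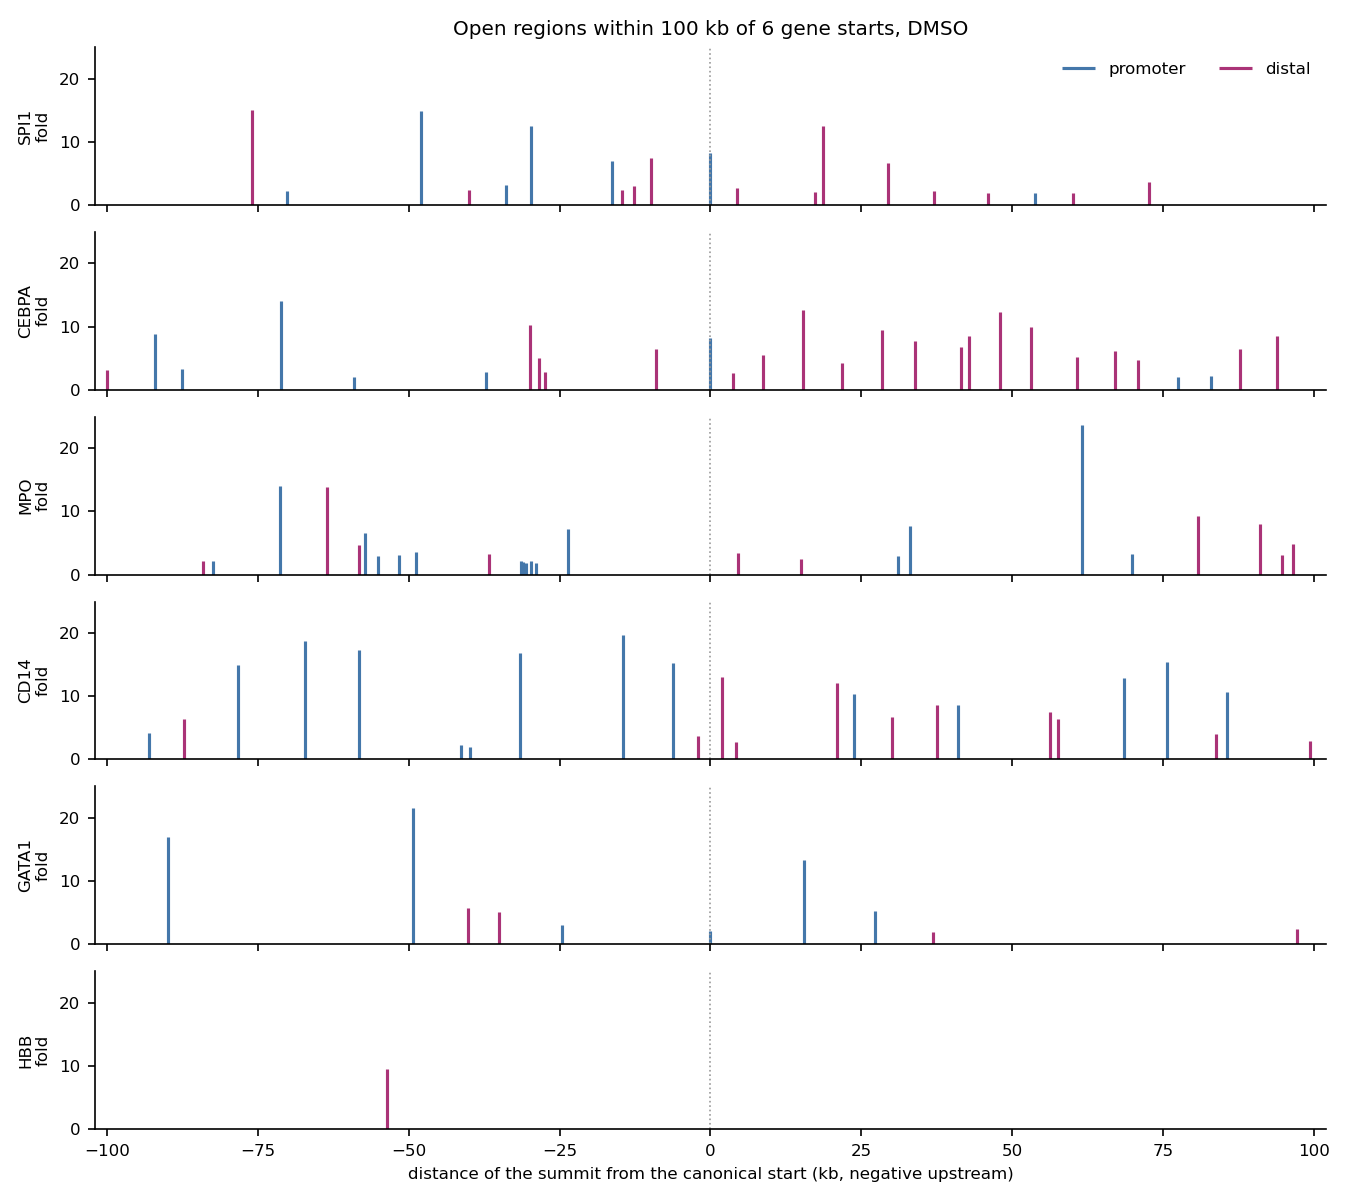
Fold over local background of each DMSO region against the distance of its summit from the canonical start of SPI1, CEBPA, MPO, CD14, GATA1 and HBB (kb, negative upstream), with promoter and distal regions in 2 colours. CEBPA has 20 distal regions, MPO has none at its start, GATA1 stands at 2.16-fold at its start, and HBB has a single region, 53653 bp upstream.

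Consensus matches were counted in 200-bp windows at summits and in windows of the same length centred 1000 bp away that overlapped no region. In distal regions PU.1 letters were found in 6.70% of 91765 windows (interval 6.54 to 6.86%), against 0.921% of flanks (0.861 to 0.985%), a ratio of 7.27. Among the other consensus forms, CTCF, the insulator protein, was found in 11.3% against 1.88%, RUNX in 9.72% against 3.38%, AP-1 in 13.8% against 6.001%, the E-box CAGCTG in 16.5% against 8.35%, and C/EBP in 16.7% against 9.25%. ETS (1.53% against 0.590%) and NRF1 (0.0948% against 0.0252%) were rare in distal windows. GATA letters were no more frequent at summits than beside them (2.41% against 2.68%), nor were the letters of IRF factors, which act in monocytes and lymphocytes (2.65% against 3.25%), or those of NFY (22.3% against 24.8%). EBF letters, of the B cell factor, were found in 0.623% against 0.348%. Neighbouring windows differ from summits in base composition, and its part in these ratios was not tested. The PU.1 and ETS letters share the core GGAAG but differ before it, so 1 core cannot match both.

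Along the sequence, matches gathered at the summit. In distal regions there were 13.3 PU.1 matches per 1000 regions in the 20-bp bin just right of the summit and 0.850 in the bin centred 490 bp away. For CTCF the same bins held 33.0 and 2.52, for AP-1 24.3 and 6.58, and for RUNX 15.1 and 3.97, while GATA held 2.09 and 2.51. In promoter regions KLF/SP matches were at 103 and 31.1.

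**Figure D5:**
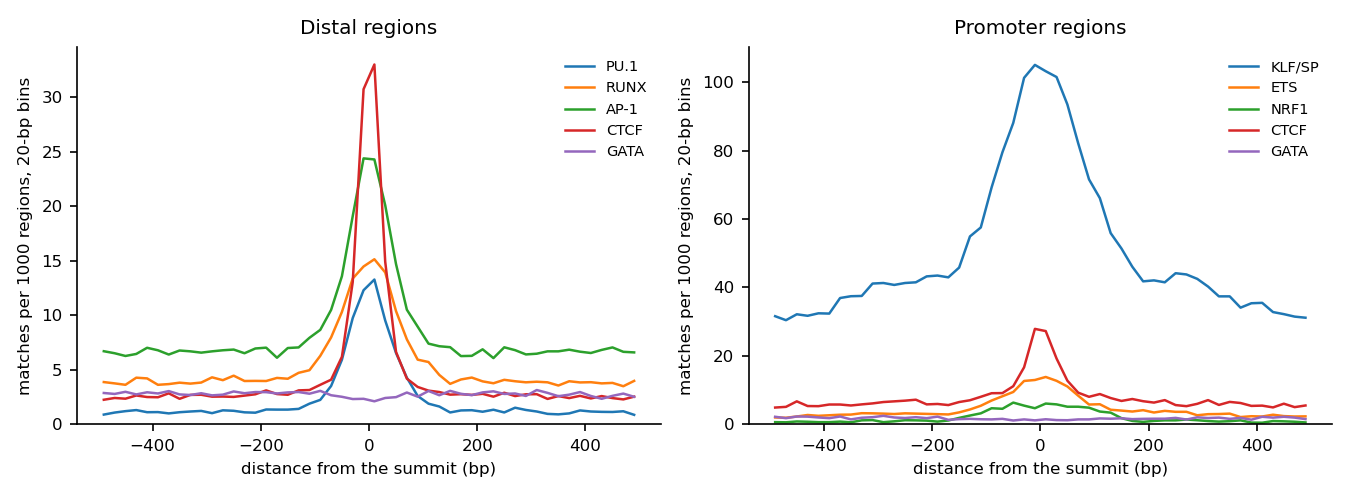
Consensus matches per 1000 regions in 20-bp bins against distance from the summit (bp), in distal (left) and promoter (right) regions. PU.1, RUNX, AP-1 and CTCF peak at the summit of distal regions, with 13.3 PU.1 matches per 1000 regions just right of it, and GATA stays near 2 to 3.

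Motif content changed with strength, and differently in the 2 classes. From the weakest to the strongest decile of distal regions, PU.1 went from 2.24% to 9.82%, RUNX from 4.69% to 14.6%, AP-1 from 7.43% to 21.2% and C/EBP from 8.04% to 21.2%, while GATA went from 2.08% to 2.65%. For PU.1 the strongest decile held 4.37 times the share of the weakest, and 2.46 times with peaks of −log10 q of at least 5 only. CTCF was highest in decile 8 (15.6%) and stood at 13.6% in the strongest. In promoter regions KLF/SP went from 20.3% to 66.1%, the CCAAT box of NFY from 15.3% to 41.6%, ETS from 1.37% to 21.4%, NRF1 from 0.121% to 8.51% and YY1 from 0.645% to 4.03%. PU.1 in promoter regions was highest in decile 3 (5.81%) and 2.14% in the strongest. Promoter summits held NRF1 in 4.34% of windows against 0.0700% of flanks, ETS in 8.55% against 0.997%, and KLF/SP in 41.6% against 8.21%.

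Distal regions with more kinds of the PU.1, AP-1, RUNX and C/EBP letters in their window were stronger and wider. With 0 kinds (55436 regions) the median fold was 4.06 and the median width 475 bp, with 1 kind (29991) 5.36 and 528 bp, with 2 kinds (5905) 6.45 and 572 bp, and with 3 kinds (427) 7.68 and 602 bp. All 4 kinds were found in 6 regions, and the printed window upstream of C1orf100 is one of them, at 14.3-fold with a pileup of 913. Around the myeloid regulators, 15 of 252 distal windows held PU.1 letters (5.95%), close to the 6.70% of all distal regions, and 51 held C/EBP letters (20.2% against 16.7%). The C/EBP share was 19.7% around stem cell, 16.6% around lymphoid, 13.7% around erythroid and megakaryocyte, and 12.5% around other-tissue regulators. For PU.1 these shares were 9.86%, 4.73%, 3.43% and 7.69%, so neither share was particular to the myeloid list. Around the erythroid and megakaryocyte regulators GATA letters stood in 1 of 175 (0.571%) and around the stem cell regulators in 6 of 71 (8.45%), against 2.41% of all distal regions.

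Against the lists of the treated groups, 67597 DMSO regions (58.0%) overlapped a region in all 3, and 16454 (14.1%) in none. The first had a median fold of 8.62 and a median pileup of 232, the second 2.39 and 39, so regions without a counterpart were weaker in the median. The lists also differ in length and in the lowest −log10 p they hold (2.79 for DMSO and 2.00 for the others), and no difference between groups was tested. Promoter regions had a counterpart in all 3 lists in 74.2% and distal regions in 53.6%. The promoters of CD14 and MPO were closed in each of the 4 lists. SPI1 stood at 8.22, 10.1, 8.49 and 10.8-fold in DMSO, ATRA, Corin and the combination, and CEBPA at 8.23, 9.62, 8.24 and 8.52-fold. The CSF1R start stood at 2.69, 9.40, 1.91 and 5.18-fold. The region 1902 bp downstream of CD14 stood at 13.1, 19.5, 10.8 and 13.5-fold. GATA1 was open in DMSO and Corin at 2.16 and 2.60-fold and closed in the others. All 16 myeloid regulators were open in each list, and the coding genes with an open promoter were 13522, 13068, 13222 and 13093.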

How the data were processed

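Open chromatin of vehicle-treated U-937 cells was analysed from the deposited narrowPeak list of the DMSO group, and those of the treated groups were used for overlap. Each list stands for both samples of its group and is named a naive overlap. How that overlap was made is not given in the sources used here. Per the submitters' processing notes the tools include cutadapt, Bowtie2, SAMtools, Picard and MACS2, with the hg38 build; settings are not given in the sources used here. In the deposited lists a column holds a ratio, the fold of the summit over local background, and others hold −log10 of the peak's p and q, each as the authors' peak caller gave it. The deposited summit column is an offset in bp from the peak start. Overlapping peaks were merged, and a region took the highest fold of its peaks. Pileup and background were solved from fold and −log10 p, with pileup whole within 0.05 for 99.97% of peaks, after testing on simulated peaks (Python 3.11.15, pandas 2.3.3, scipy 1.17.1). Starts came from GENCODE release 44, and merging was checked against bedtools 2.31.1. Repeat content was not computed. No test was made, since 1 list holds no replicates. The gene lists, members and named regions were chosen with earlier results of these data known. By rule the text names the 10 highest regions by fold and by −log10 p and the 10 widest, up to 6 highest and 6 closed genes per list, the marker genes, and the strongest distal region of 3 leading regulators per list; others were chosen after their values were seen. Some genes and 1 sequence covered by the naming rule are not reported here.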

Additional observations from a re-analysis of the deposited data

How the results depend on the processing

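No paired analysis was possible because each group has a single list in which replicates were combined, and for the same reason no replicate could be left out. Of 89 comparisons with an alternative setting, 73 stayed within 1.5 times for counts or within the 95% interval for shares and ratios, and 16 did not; the cause was not tested. With peaks of −log10 q of at least 5 the list held 102071 regions, and with peaks within 150 bp merged 114217. The first setting left 1 regulator of other tissues with an open promoter and a promoter share of 22.3%. Stem cell regulators above the median were 4 within 50 kb, where the median of all coding genes was 4, and 4 with distal set at over 2.5 kb. The ratio of summit to flank share with strict peaks was 8.09 for distal PU.1, 3.10 for distal RUNX and 5.34 for promoter KLF/SP, and with 100-bp windows 10.8, 3.80 and 6.80. The ratio of the strongest to the weakest decile with strict peaks was 2.46 for PU.1 and 2.29 for RUNX, against 4.37 and 3.12. With 100-bp windows it was 3.71 for RUNX and 3.94 for KLF/SP, and with strength by −log10 p 4.50 for KLF/SP, against 3.26. Read depth is unknown, so a closed promoter means no called peak, not absence of accessibility.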
